A study of Mus musculus with 3 samples.

Results

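Immediate early genes were followed here across the sinonasal mucosa of healthy and diseased mice: Fos, Fosb, Jun, Junb, Egr1, Atf3, Ier2, Ier3, Dusp1 and Csrnp1. These 10 of the 17349 genes with a named probe were taken by symbol from a list with no threshold on their values, though with earlier results of these data known, and they had 11 probes, 2 of them for Ier3. The tissue came from C57BL/6 mice of 6 to 8 weeks in 3 groups. The ECRS_KO mice lacked CC10 and had allergic eosinophilic chronic rhinosinusitis, the ECRS_WT mice were wild type with the same disease, and the Control_WT mice were wild type without it. Each group is 1 pool of RNA from 5 mice, measured on 1 bead array of Illumina, so no difference below has a replicate, an error over mice or a p-value, and precision is limited by the number of arrays. The tissue is a whole lining of many cell types, in which fewer cells of a type and less RNA per cell cannot be told apart.

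Immediate early genes are transcribed within minutes of a stimulus, without new protein synthesis, when MAP kinase, calcium or cyclic AMP signals reach factors such as SRF and CREB already bound at their promoters. Many encode transcription factors: proteins of the Fos and Jun families pair to form AP-1, and EGR1 is a zinc finger factor. Others limit the signal, such as DUSP1, a phosphatase that switches MAP kinases off. In airway lining these genes are known to respond to injury, cytokines and inhaled irritants.

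The targeted gene did not follow the labels. Scgb1a1, which encodes CC10, had a signal of 597 on the ECRS_KO-labelled array and 493 on the ECRS_WT-labelled array, against 3.32 on the Control_WT-labelled array, where its probe was below detection. After normalization the order of the first 2 reversed, with Scgb1a1 at 8.84 and 9.03 on the log2 scale. The place of its probe relative to the deletion is not known here, so the probe cannot check the label ECRS_KO. The label Control_WT is in doubt as well. A wild-type pool carries no deletion, yet the gene was not detected on that array, while it was detected on the one labelled as lacking CC10. For that reason each array is called by its label, and each difference below is one between arrays so labelled. Whether it is one between the labelled genotypes or disease states cannot be told from these values, and a wrong label would change what all comparisons that use the array compare. The arrays differed in brightness, with a mean signal of 465, 373 and 295 and 12508, 11992 and 11428 of 35226 probes detected on the arrays labelled ECRS_KO, ECRS_WT and Control_WT. Markers of the olfactory neuron (Omp), of secretory epithelium (Cyp2f2, Cbr2) and of basal cells (Krt5) were detected on all 3 arrays, but others of the same lists were not. The epithelial genes Epcam and Krt8 and the basal cell genes Trp63 and Ngfr were detected on none. The olfactory genes Gnal and Rtp1 were not detected on the Control_WT-labelled array, nor the epithelial gene Cdh1 on the ECRS_KO-labelled array.

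The promoters of the detected members differ in the short motifs they hold close to the start of transcription. The 250 bases upstream of the start are shown for the 4 detected members with a single annotated start whose sequence is given here, taken from RefSeq on build GRCm38.p6, each written 5′ to 3′ on the strand of the gene. Capitals mark TGACG, the core of the cyclic AMP response element, on either strand, and in Jun the motif TGACATCA, which is the AP-1-like element by which the gene is known to regulate itself.
Fos, chr12:85473640-85473889, plus strand: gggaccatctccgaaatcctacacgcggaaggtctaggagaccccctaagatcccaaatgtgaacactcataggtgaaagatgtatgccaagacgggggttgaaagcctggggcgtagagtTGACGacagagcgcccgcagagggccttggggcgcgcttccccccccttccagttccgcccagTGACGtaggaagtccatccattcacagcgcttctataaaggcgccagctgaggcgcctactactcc
Jun, chr4:95052223-95052472, minus strand: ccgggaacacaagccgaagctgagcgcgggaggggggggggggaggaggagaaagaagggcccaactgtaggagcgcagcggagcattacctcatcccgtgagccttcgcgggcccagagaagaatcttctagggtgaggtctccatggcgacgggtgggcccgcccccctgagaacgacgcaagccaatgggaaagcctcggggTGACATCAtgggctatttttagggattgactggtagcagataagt
Ier3, chr17:35821463-35821712, plus strand: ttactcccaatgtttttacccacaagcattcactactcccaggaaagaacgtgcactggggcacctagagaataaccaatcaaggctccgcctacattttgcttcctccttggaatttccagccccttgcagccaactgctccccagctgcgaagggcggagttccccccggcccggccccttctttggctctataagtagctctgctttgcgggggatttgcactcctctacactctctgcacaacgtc
Dusp1, chr17:26508473-26508722, minus strand: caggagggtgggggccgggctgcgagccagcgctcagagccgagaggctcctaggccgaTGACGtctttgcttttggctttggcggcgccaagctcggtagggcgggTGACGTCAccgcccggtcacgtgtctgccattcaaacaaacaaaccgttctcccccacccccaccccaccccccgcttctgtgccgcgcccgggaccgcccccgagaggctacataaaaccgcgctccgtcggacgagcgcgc
Fos carried TGACG at 2 places, ending 124 and 61 bases before the start, and its window was the only member window with TATAAA. Dusp1 carried it at 3 places, of which 2 overlap on opposite strands in the full palindrome TGACGTCA, which holds TGACG by its own letters. Jun and Ier3 had no TGACG, and TGACATCA in Jun ended 37 bases before the start. Windows were found for 8 of the 10 members, and 6 of these 8 genes held TGACG in at least 1 window, beside 17.8% of all 32851 annotated promoter windows of this length. The count is by gene and the share by window, and Csrnp1 alone has 4 of the 11 member windows, so the 2 are unlike measures. TGACGTCA was in 1.55% of all windows and TGACATCA in 2.93%, TATAAA in 12.4%. The CArG box, the element bound by SRF, was in 1.47% of all windows and in none of the 11 member windows, which covers only these 250 bases. Csrnp1 has 4 annotated starts, each with TGACG in its window, and 1 of these windows also held the AP-1 motif (TGACTCA or TGAGTCA), which was in 4.46% of all windows. Both strands were searched for every motif. A match in letters is a description and not a measured site.

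Of the 10 members, 6 were detected on all 3 arrays (Fos, Jun, Egr1, Ier3, Dusp1 and Csrnp1) and 4 on none (Fosb, Junb, Atf3 and Ier2). A probe counted as detected at a detection p-value under 0.01. Levels are log2 normalized signal, a difference is the level on the array named first minus that on the other, and a gene was called apart at 2-fold or more when detected on the brighter array. Since a probe's brightness depends on its sequence, levels are compared between arrays for each gene and not between genes.

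**Figure D1:**
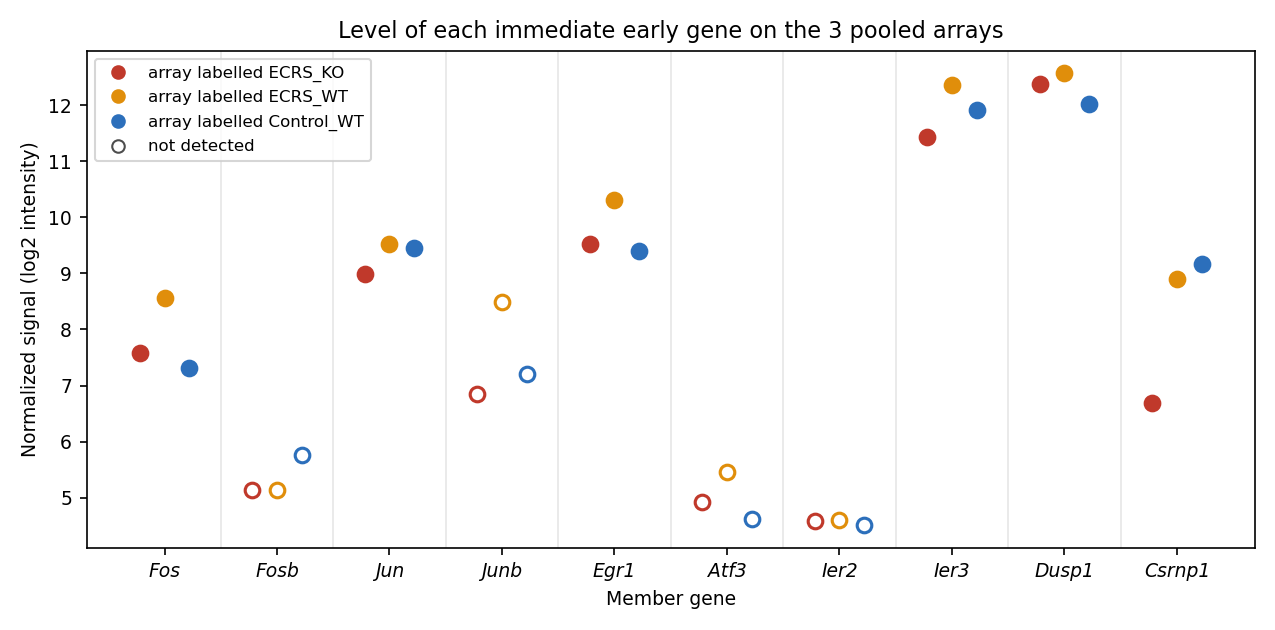
Normalized signal (log2 intensity, vertical axis) of each member gene on the arrays labelled ECRS_KO, ECRS_WT and Control_WT; each point is 1 array of a pool of 5 mice, and open points were not detected. Of the detected members, Fos, Egr1, Ier3, Dusp1 and Jun were highest on the ECRS_WT-labelled array, Jun by little. Csrnp1 was lowest on the ECRS_KO-labelled array, at 6.69 against 8.89 and 9.17.

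By its labels, setting ECRS_WT against Control_WT asks about the disease in wild-type mice, but Scgb1a1 goes against the label Control_WT, being at least 14.3-fold higher on the ECRS_WT-labelled array. Here and below, "at least" is relative to the level set for an undetected probe and is not a guaranteed minimum. Fos, the AP-1 subunit, was the only member called apart. Egr1 lay just inside 2-fold, Dusp1 and Ier3 were higher by less, and Jun and Csrnp1 differed little. Thus 1 of 6 measured members was called higher and none lower, where 3.76% of 8766 measured genes were called higher and 1.4% lower, or 5.17% in either direction. The median of the 6 was 0.50 on the log2 scale, beside -0.09 for all measured genes.

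Fos had a deposited signal of 354 on the ECRS_WT-labelled array and 83.4 on the Control_WT-labelled array. The normalized difference was 1.26 on the log2 scale, or 2.39-fold higher, and 97.8% of measured genes had a lower value. Egr1, a zinc finger factor induced by growth factors and injury, had signals of 1224 on the ECRS_WT-labelled array and 447 on the Control_WT-labelled array, a difference of 0.91 (1.88-fold higher). Different probes of the same gene differed in this comparison by a pooled SD of 0.50 over 370 genes, a spread between probes and not between mice, and Fos and Egr1 lay further from 0 than that.

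Dusp1 had signals of 5998 on the ECRS_WT-labelled array and 3169.7 on the Control_WT-labelled array, which became a difference of 0.55 (1.47-fold higher) after normalization. Ier3, which encodes a small protein that modulates cell survival and ERK signalling, had signals of 5167 and 2967 on the same arrays, a difference of 0.45 (1.36-fold higher). Dusp1 was thus at about the spread between probes and Ier3 within it. The signals of Jun, the other AP-1 subunit, were 697 on the ECRS_WT-labelled array and 465 on the Control_WT-labelled array, a difference of 0.07, well within that spread. Csrnp1, a cysteine and serine rich nuclear protein first described in human cells as induced by AXIN1, had signals of 449 on the ECRS_WT-labelled array and 373 on the Control_WT-labelled array, a difference of -0.28.

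The scaling of the arrays moved all genes together. Over 7053 genes detected on all arrays the median difference in this comparison was 0.40 without normalization between arrays and 0.11 with median scaling, against -0.09 as reported. Taken relative to that median, the values of Fos lay between 0.41 and 1.48 and those of Egr1 between 0.96 and 1.16 over all 12 settings, and all 6 members kept their sign. The lowest value of Fos came from limma's own background inference, under which its difference of 0.39 was not a call while Egr1, at 1.14, was. With the authors' normalized values Fos was at 0.93, also no call. Of all calls in this comparison, 92.3% were higher under median scaling and 72.8% as reported.

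By its labels, setting ECRS_KO against ECRS_WT asks about the lack of CC10 in diseased mucosa, but Scgb1a1 differed by only -0.18 on the log2 scale between these arrays. All 6 measured members were lower on the ECRS_KO-labelled array, and 1, Csrnp1, was called at 4.61-fold lower. Fos, Ier3 and Egr1 were between 1.73-fold and 1.97-fold lower, Jun 1.45-fold and Dusp1 1.14-fold. Among 8919 measured genes 2.35% were called lower and 4.72% higher, or 7.07% in either direction, so 1 call among 6 members is a single gene. The median of the 6 was -0.86, beside -0.04 for all measured genes.

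Csrnp1 had a signal of 125 on the ECRS_KO-labelled array, against 449 on the ECRS_WT-labelled array. Its difference of -2.20 was lower than that of all but 8 of the 8919 genes. It is a member with a detected probe on every array, so this is a measured fold and not a bound. Under limma's own background inference the difference was -0.66 and no call.

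Fos had signals of 246 on the ECRS_KO-labelled array and 354 on the ECRS_WT-labelled array, a difference of -0.98 that lay just inside the 2-fold limit. Ier3 had 3491 and 5167 on these arrays, a difference of -0.93, and Egr1 955 and 1224 on them, a difference of -0.79. Of all measured genes, 97.5%, 97.0% and 95.3% had values above those of Fos, Ier3 and Egr1. Each of the 3 exceeded the spread between probes of a gene, whose pooled SD was 0.29 over 491 genes. Ier3 and Egr1 passed 2-fold under limma's own inference (-1.05 and -1.01), and Ier3 also when arrays were scaled on commonly detected probes (-1.01). With the mean of both its probes, 1 of them undetected, Ier3 was at -0.45.

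Jun had signals of 662 on the ECRS_KO-labelled array and 697 on the ECRS_WT-labelled array, a difference of -0.53 after normalization. Dusp1 had 6556 and 5998 on these arrays, so that its deposited signal was higher on the ECRS_KO-labelled array while its normalized difference was -0.18, within the spread between probes. Without that step Dusp1 was at 0.13, where the median of the 7053 genes was 0.39. Relative to the median of all genes each of the 6 members was below 0 in all 12 settings, from -0.13 to -0.26 for Dusp1 and from -0.45 to -0.49 for Jun. Several of these settings give equal values by construction, so their number is not a number of separate checks. The share of calls over all genes that were higher was 81.7% under median scaling and 66.7% as reported.

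**Figure D2:**
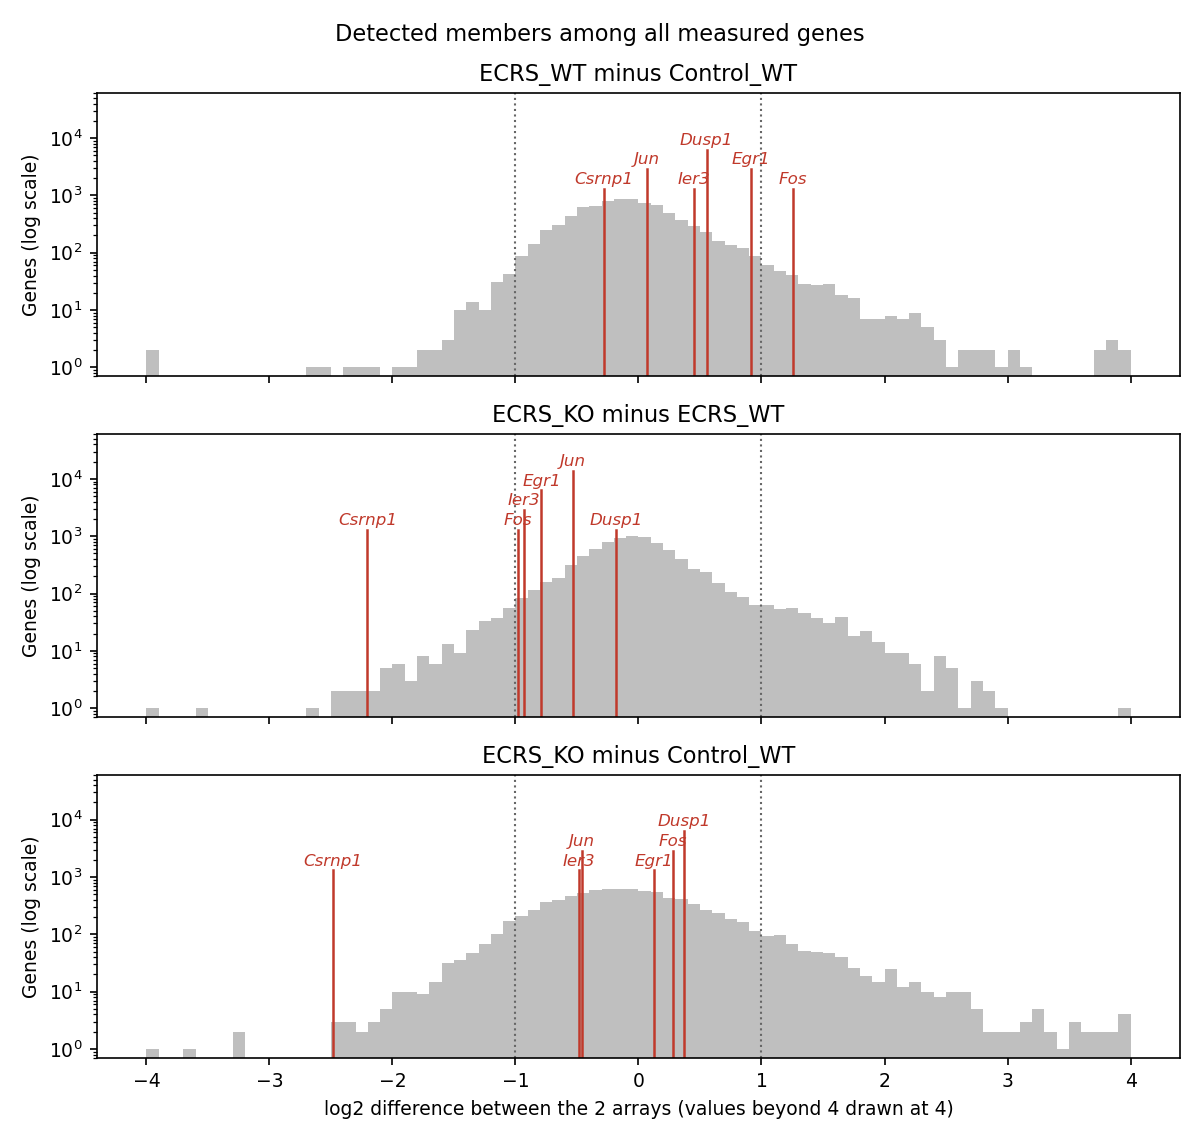
Histograms of the log2 difference of all measured genes in each comparison (number of genes on a log scale), with red lines at the 6 detected members and dotted lines at 2-fold. Fos (1.26) lies beyond the upper dotted line in ECRS_WT minus Control_WT, and Csrnp1 (-2.20 and -2.48) far in the lower tail of both comparisons of ECRS_KO.

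These comparisons share the ECRS_WT-labelled array, so a deviation of that array alone would enter them with opposite signs, and they are not independent. The comparison of ECRS_KO with Control_WT leaves it out. There Fos differed by 0.28, Dusp1 by 0.37 and Egr1 by 0.13, while Jun differed by -0.46 and Ier3 by -0.49. Only Csrnp1 was called, with a difference of -2.48 (5.59-fold lower), and 4 of 9085 measured genes had a lower value. Of these genes 5.66% were called lower and 6.91% higher, or 12.6% in either direction. Of the calls, 90.8% were higher under median scaling against 55.0% as reported. Relative to the median of the 7053 genes, which was 0.79 without normalization and -0.13 as reported, Csrnp1 ranged from -2.38 to -0.83 and Fos from 0.09 to 0.59 over the 12 settings. Csrnp1 thus differed by more than 2-fold from each wild-type array, except under limma's own inference (-0.87 here). The differences of Fos (1.21-fold) and Egr1 (1.09-fold) were within the pooled SD between probes of 0.58.

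**Figure D3:**
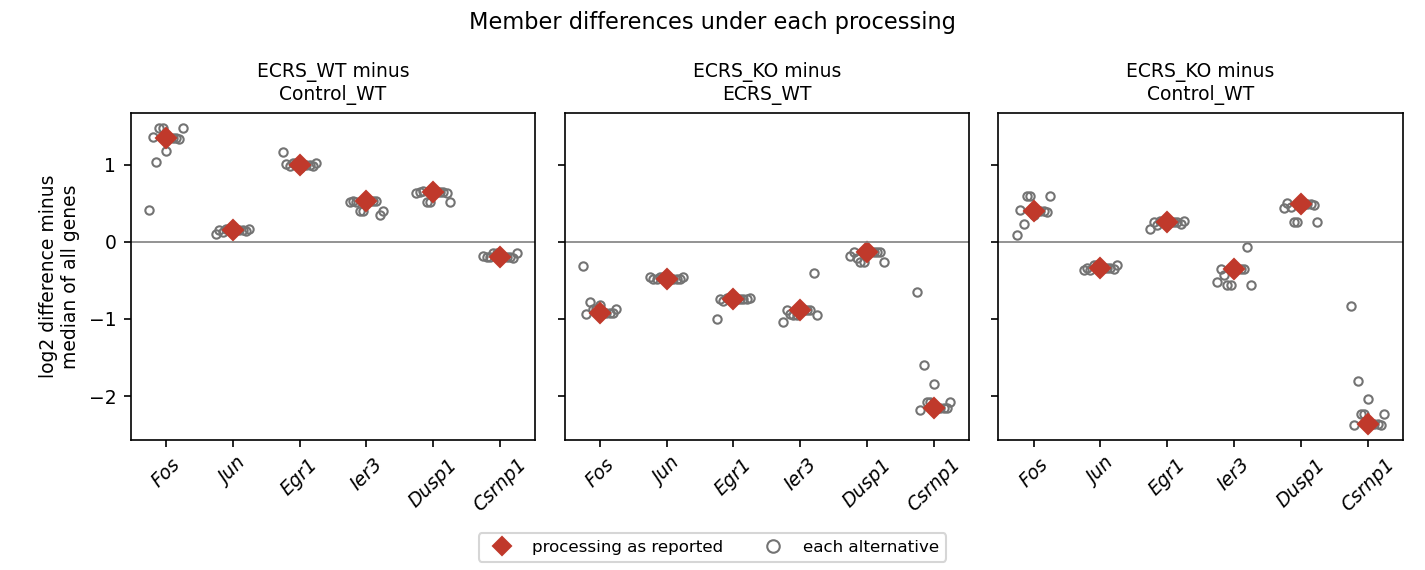
Log2 difference of each detected member minus the median of all genes (vertical axis) in the 3 comparisons; diamonds are the processing as reported and circles each of the 11 alternatives. No member changes sign, though several settings give equal values by construction. The circles that stand furthest from their diamonds for Fos and Csrnp1 are those of limma's own background inference.

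The 4 members without a detected probe carry little information. Ier2, a nuclear protein of the early response, had signals of -14.2, -8.52 and -13.3 on the arrays labelled ECRS_KO, ECRS_WT and Control_WT, at the background. Fosb, a further Fos family subunit, had 20.2, 14.0 and 21.5, also near it. Atf3, a stress-induced factor of the ATF family that is known to dampen inflammatory transcription, had 8.73 on the ECRS_KO-labelled array and 24.9 on the ECRS_WT-labelled array, against -5.96 on the Control_WT-labelled array. Its detection p-value on the ECRS_WT-labelled array was 0.0370, above the threshold of 0.01.

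Junb, the Jun family subunit that often restrains Jun, was unlike these. Its probe had signals of 143 on the ECRS_KO-labelled array and 333 on the ECRS_WT-labelled array, against 75.3 on the Control_WT-labelled array. On all 3 arrays it was nevertheless not detected, with p-values of 0.182, 0.129 and 0.457. Signal and detection p were not tied in this table, since 222, 178 and 153 probes on these arrays exceeded 1000 in signal without being detected. With no detection filter Junb would differ by 1.28 between ECRS_WT and Control_WT and by -1.63 between ECRS_KO and ECRS_WT. The other probe of Ier3 was at -6.20, -5.11 and -10.0 and not detected, so Ier3 rests on 1 probe like every other member.

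Other immediate early genes were a list of 28, of which 27 had a probe. On the ECRS_WT-labelled array 1 of 16 measured genes was called higher than on the Control_WT-labelled array and none lower, with a median of 0.18. Of all measured genes 3.76% were called higher and 1.4% lower, with a median of -0.09. Klf4, a zinc finger factor of epithelia and macrophages, had a signal of 92.4 on the ECRS_WT-labelled array and 11.4 on the Control_WT-labelled array (2.88-fold higher). The lower of these signals was near the background, so this fold is uncertain. For ECRS_KO against ECRS_WT 2.35% of all measured genes were called lower and 4.72% higher, with a median of -0.04. Of the list 2 of 16 were called lower on the ECRS_KO-labelled array than on the ECRS_WT-labelled array, none was called higher, and the median was -0.42 with 14 of 16 below 0. These were Sik1, a cyclic AMP-induced kinase that limits CREB coactivators (107 against 178, 2.19-fold lower), and Klf4 (49.1 against 92.4, 2.14-fold lower). All 3 calls were lost under limma's own background inference, where Klf4 differed by 0.12 and -0.09 and Sik1 by -0.17. Between ECRS_KO and Control_WT 3 of 15 measured genes were called lower, none was called higher and the median was -0.21, where 5.66% of all measured genes were called lower. These were Plk3 (2.74-fold lower), Arc (2.73-fold) and Klf2 (2.34-fold). Under limma's own inference Plk3 (-0.80) and Arc (-0.25) were no calls, and Klf2 lay at the 2-fold limit.

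Partners of Fos and Jun in AP-1 and related dimers showed no call in either of these comparisons. Of 14 genes 13 had a probe and 7 were measured, with medians of 0.10 for ECRS_WT against Control_WT and -0.12 for ECRS_KO against ECRS_WT. Mafg, a small Maf protein, had signals of 1544 on the ECRS_KO-labelled array and 1007 on the ECRS_WT-labelled array, against 587 on the Control_WT-labelled array, with differences of 0.28 for ECRS_WT against Control_WT and 0.20 for ECRS_KO against ECRS_WT. Atf4, the effector of the integrated stress response, differed by 0.57 and 0.18 in the same order. Upstream kinases and transcription factors, 19 of 28 with a probe, lay near the median of all genes, with none of 9 measured called. Their medians were -0.08 for ECRS_WT against Control_WT and 0.01 for ECRS_KO against ECRS_WT. Map2k2, a kinase that activates ERK, differed by -0.40 and 0.01, and Map2k3, which activates p38, by -0.08 and -0.52. Between ECRS_KO and Control_WT the only call among these groups was Batf3, at least 2.14-fold lower (-0.07 on the log2 scale under limma's own inference). Of all measured genes 5.66% were called lower in that comparison.

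The other MAP kinase phosphatases, 9 of 10 with a probe, included a gene called in each direction. Of 6 measured, none was called between ECRS_WT and Control_WT, where the median was 0.02 and Dusp5 and Dusp8 differed by 0.02 and -0.79. Between ECRS_KO and ECRS_WT 1 was called higher and 1 lower, where 4.72% of all measured genes were called higher and 2.35% lower. Dusp8, a phosphatase of stress-activated kinases, had signals of 1437 on the ECRS_KO-labelled array and 382 on the ECRS_WT-labelled array (2.75-fold higher), and kept that call under limma's own inference, with a difference of 1.42. Dusp2, which is known from lymphocytes and myeloid cells, had 60.6 and 106 on these arrays (2.09-fold lower), and differed by -0.10 under that inference. It was also the only call of this list between ECRS_KO and Control_WT, at 2.05-fold lower, where 5.66% of all measured genes were called lower.

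Feedback inhibitors and mRNA decay factors, 12 of 13 with a probe, had no call. The medians were -0.02 over 8 measured genes for ECRS_WT against Control_WT and -0.37 over 7 for ECRS_KO against ECRS_WT. Zfp36, the decay factor tristetraprolin that shortens the life of cytokine mRNAs, had signals of 754 on the ECRS_KO-labelled array and 1101 on the ECRS_WT-labelled array, against 718 on the Control_WT-labelled array. Its difference of -0.99 between ECRS_KO and ECRS_WT was just inside 2-fold (-1.13 under limma's own inference), and that between ECRS_WT and Control_WT was 0.16. Tob1, an antiproliferative factor, differed by -0.15 and -0.06 in these comparisons.

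Genes known as targets of AP-1 or EGR1 included Mmp3, the furthest from 0 of all measured genes of the 7 lists in both comparisons. Of the 19 genes 17 had a probe. Of 14 measured genes 2 were called higher and none lower on the ECRS_WT-labelled array than on the Control_WT-labelled array, and the median was 0.03. Over all measured genes 3.76% were called higher and 1.4% lower, and the median was -0.09. Mmp3, the matrix protease stromelysin, had a signal of 363 on the ECRS_WT-labelled array and 17.1, near the background, on the Control_WT-labelled array (8.28-fold higher). Cxcl1, a chemokine that draws neutrophils, had 712 and 176 on these arrays (2.59-fold higher). For ECRS_KO against ECRS_WT 2.35% of all measured genes were called lower and 4.72% higher, with a median of -0.04. On the ECRS_KO-labelled array 3 of 13 genes of the list were called lower than on the ECRS_WT-labelled array and none higher, and the median was -0.55. Mmp3 was not detected there and was at least 11.7-fold lower, Cxcl1, at 252, was 3.82-fold lower, and Plaur, the urokinase receptor, had 100.2 against 205 (2.62-fold lower). Under limma's own inference Cxcl1 kept its call against ECRS_WT (-1.09), where Mmp3 differed by -0.61 and Plaur by -0.23. Against Control_WT neither Mmp3 (0.58) nor Cxcl1 (0.92) kept it. Between ECRS_KO and Control_WT 1 of 13 was called, Plaur at 2.25-fold lower (-0.17 on the log2 scale under limma's own inference). Of all measured genes 5.66% were called lower in that comparison.

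Heat shock genes, a stress response outside the AP-1 pathway with 6 of 10 on the array, had 1 of 5 measured members called higher and none lower for ECRS_WT against Control_WT, with a median of 0.38. This was Hspa1a, the inducible Hsp70, at least 2.50-fold higher (0.09 on the log2 scale under limma's own inference). Of all measured genes 3.76% were called higher, with a median of -0.09. No heat shock gene was called between ECRS_KO and ECRS_WT, where the median was -0.35 and the abundant co-chaperone genes Dnajb1 and Bag3 differed by -0.29 and -0.35.

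**Figure D4:**
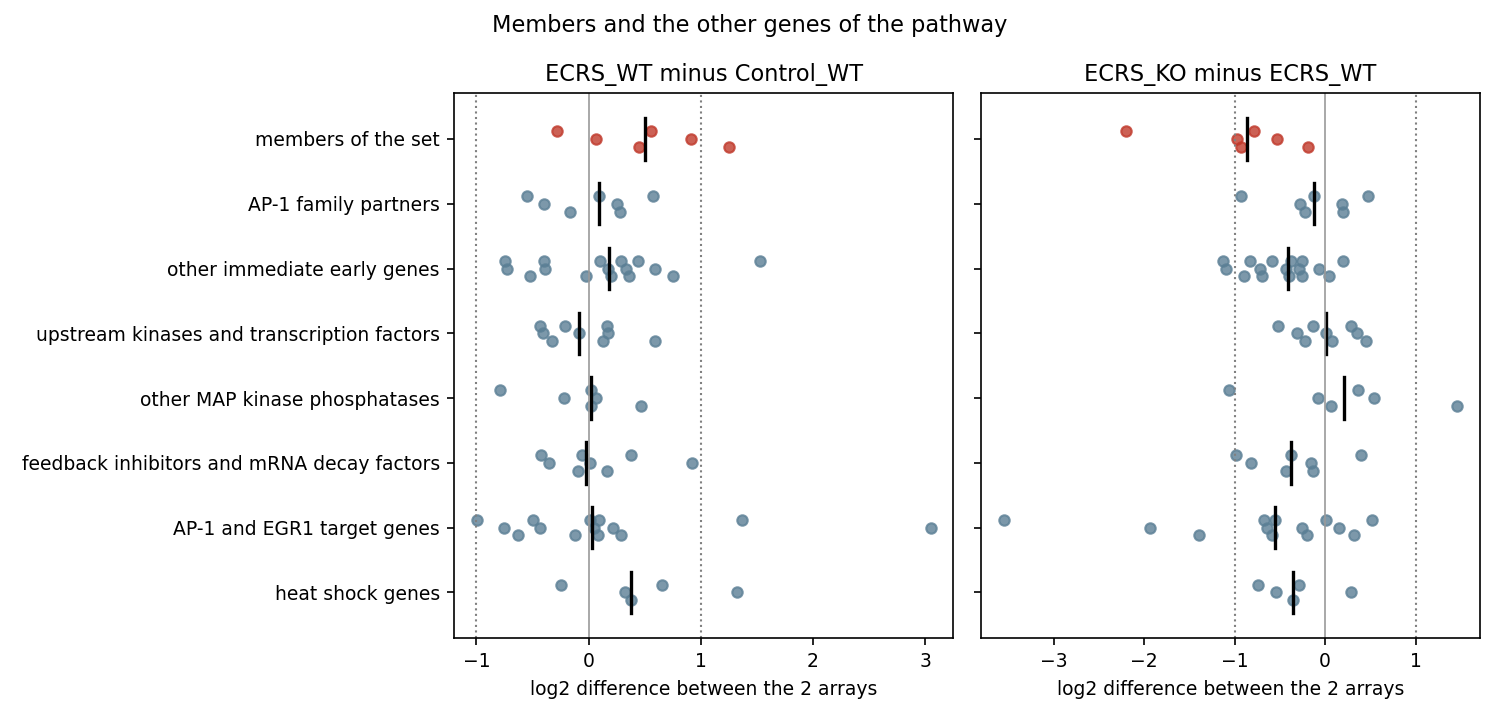
Log2 differences of the measured members and of the measured genes of 7 pathway lists (1 point a gene, black bars at the median, dotted lines at 2-fold) for ECRS_WT minus Control_WT and ECRS_KO minus ECRS_WT. The medians of the members were 0.50 and -0.86, and Mmp3 (3.05 and -3.55) is the furthest point of each panel. The signal of Mmp3 was near the background on the Control_WT-labelled array and not detected on the ECRS_KO-labelled array.

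Markers of cell types differed between these arrays as well, some lists in the direction of the members and others in the opposite direction. Their sums are of deposited signals, not normalized between arrays of unequal brightness, whereas counts and medians are of normalized differences as reported, not of the alternatives. Of all measured genes 3.76% were called higher and 1.4% lower for ECRS_WT against Control_WT. For ECRS_KO against ECRS_WT these shares were 4.72% and 2.35%, and for ECRS_KO against Control_WT 6.91% and 5.66%. Macrophage markers, 6 of 8 with a probe, had a summed signal of 3249.9 on the ECRS_KO-labelled array and 6604 on the ECRS_WT-labelled array, against 2697 on the Control_WT-labelled array. Of them, 5, 6 and 5 were detected, Adgre1 being the one that was not. For ECRS_KO against ECRS_WT 4 of 6 were called lower (median -1.41), for ECRS_WT against Control_WT 2 of 6 higher (median 0.84), and for ECRS_KO against Control_WT 1 of 5 lower (median -0.59). C1qb and C1qc, complement genes of macrophages, were 3.41-fold and 2.90-fold lower on the ECRS_KO-labelled array than on the ECRS_WT-labelled array, where they were 1.94-fold and 2.36-fold higher than on the Control_WT-labelled array. T cell markers, 5 of 7 with a probe, summed to 498 on the ECRS_KO-labelled array and 1561 on the ECRS_WT-labelled array, against 911 on the Control_WT-labelled array. Cd4 was not detected on any of them, nor Cd2 on the ECRS_KO-labelled array. All 4 measured T cell markers were called lower on the ECRS_KO-labelled array than on either wild-type array, with medians of -2.01 against ECRS_WT and -1.56 against Control_WT. For ECRS_WT against Control_WT none of the 4 was called, with 2 above 0, 2 below 0 and a median of 0.09.

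Markers of mature olfactory neurons, 8 of 8 with a probe, summed to 73113 on the ECRS_KO-labelled array and 28581 on the ECRS_WT-labelled array, against 25216 on the Control_WT-labelled array. Of them 7 of 8 were called higher for ECRS_KO against ECRS_WT (all 8 above 0, median 1.66) and 6 of 8 for ECRS_KO against Control_WT (median 2.09), with 2 of 8 higher for ECRS_WT against Control_WT (median 0.11). Gng13 was 2.77-fold higher on the ECRS_KO-labelled array than on the ECRS_WT-labelled array, and Omp, the marker not called, 1.11-fold. Neutrophil markers, 10 of 10 with a probe, summed to 62504 on the ECRS_KO-labelled array and 50964 on the ECRS_WT-labelled array, against 57302 on the Control_WT-labelled array. For ECRS_WT against Control_WT 4 of 9 measured were called lower (8 of 9 below 0, median -0.76), for ECRS_KO against Control_WT 2 of 9 (median -0.59), and for ECRS_KO against ECRS_WT none was called (median 0.16). Fibroblast markers, 4 of 5 with a probe, summed to 6042, 5679 and 3880 on the same arrays, with no call in any comparison. Their normalized medians were nevertheless below 0, at -0.15 for ECRS_WT against Control_WT, -0.19 for ECRS_KO against ECRS_WT and -0.14 for ECRS_KO against Control_WT. The medians of all measured genes were also below 0, at -0.09, -0.04 and -0.11 in the same order. Ciliated cell markers summed to 10639, 9840 and 9370, yet all 5 measured had normalized differences below 0 in each comparison. Their medians were -0.26 for ECRS_WT against Control_WT, -0.49 for ECRS_KO against ECRS_WT and -0.86 for ECRS_KO against Control_WT, where 1 was called lower. Basal cell markers summed to 5985, 6447 and 6250.4, and all 3 measured were below 0 in both comparisons of ECRS_KO, with medians of -0.41 against ECRS_WT and -0.85 against Control_WT, where 1 was called lower. For ECRS_WT against Control_WT 2 of the 3 were below 0 (median -0.44, none called). Endothelial markers summed to 9061, 8376 and 8276, again with normalized differences below 0. For ECRS_KO against ECRS_WT these were 5 of 6 (median -0.24, none called), and for ECRS_KO against Control_WT 5 of 5 (median -0.48, 2 called lower). For ECRS_WT against Control_WT these were 6 of 6 (median -0.24, none called). Secretory epithelium summed to 84657, 83138 and 85413, with no call among 6 measured markers in any comparison. Smooth muscle summed to 24830, 24491 and 23203, but only 1 of its 4 markers, Acta2, was detected. Acta2 was not called in any comparison. The part of any of these cells in the levels of the immediate early genes was not tested.

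By distance over its 2 differences across the 3 arrays, the genes most like Fos among 7047 other genes detected on all arrays were Edn2, Unc93b1, Rnase4, Fermt3 and Mcpt4, at distances of 0.19 to 0.26 on the log2 scale. Of the members Egr1 was the nearest, at 0.39, with 18 other genes closer to Fos than it, and Ier3 followed at 0.81. Csrnp1 was the furthest at 1.96. With 3 arrays this likeness describes these pools and nothing more.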

How the data were processed

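Per the file headers, the deposited table gives the intensity of 35226 probes on 3 arrays, each with its detection p-value. The submitters' processing notes name BeadStudio; its version and the genome build are not stated in those sources. The series table holds intensity normalized by the authors, by a method not given here, on a linear scale.

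Signals were corrected with limma 3.58.1 in R 4.3.3 by normexp (offset 16) and quantile normalized, then put on the log2 scale. The background SD, taken from median signals over 100 detection p bins, was 16.9, 13.7 and 9.23 on the arrays labelled ECRS_KO, ECRS_WT and Control_WT; limma's own inference gave 361, 356 and 259.6 and is an alternative. Detection took p under 0.01. A gene detected on either array was measured. A probe not detected on the dimmer array was set to the higher of its own level and the lowest detected level there (5.00, 5.06 and 5.19 in the order above), and the fold is given as "at least". Since signal and detection p were not tied, an undetected gene need not lie below that level. Such a fold is a bound only relative to the level set and not a guaranteed minimum. For a gene with several probes the probe of highest mean signal was used. Of the probes, 20571 had 1 symbol, 10 several and 14645 none; 20525 were matched by Entrez identifier to the RefSeq table of GRCm38.p6. The arrays carry 1 pool each, so no test was made. The calling procedure was tested on simulated data. These data took the background SD as reported and derived detection p from the signal. They therefore cannot show how calls behave under another background or where signal and detection p are not tied.

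Members and the 7 pathway and 10 marker lists (103 of 122 and 62 genes with a probe) were chosen with earlier results of these data known. Named are all members, Scgb1a1 and the 5 genes nearest to Fos. Of each pathway list the 3 largest calls or otherwise the 2 brightest genes are named, in ECRS_WT against Control_WT and in ECRS_KO against ECRS_WT. Of marker lists the 2 brightest measured genes are named where their list is described. Adgre1, Cd2, Cd4, Cdh1, Epcam, Gnal, Krt8, Ngfr, Rtp1 and Trp63 are named for not being detected on 1 or more arrays, and Krt5 and Omp as detected markers. Of 11 other settings tried, 1 (without normalization) was added once values had been seen, and Mmp9 and the calls of ECRS_KO against Control_WT in the lists were named then too. Tables were handled in Python 3.11.15 with pandas 2.3.3.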

Additional observations from a re-analysis of the deposited data

How the results depend on the processing

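No paired analysis was possible because each group is 1 array. The number of members called (1 in each comparison as reported) was 0 with the authors' normalized values and 2 with median scaling, with no detection filter and without normalization for ECRS_WT against Control_WT. For ECRS_KO against ECRS_WT it was 2 with limma's own background inference, with scaling on commonly detected probes and with no detection filter, and for ECRS_KO against Control_WT it was 0 with limma's own inference and 4 without normalization. Over the pathway lists, for ECRS_WT against Control_WT, 4 genes were called as reported, 1 with limma's own inference (Mmp9, lower, and none of the 4), 2 with probes detected on all arrays and 10 without normalization. For ECRS_KO against ECRS_WT these were 7 as reported, 3 with limma's own inference, with the authors' values and without normalization, and 4 with median scaling and with an offset of 50. For ECRS_KO against Control_WT they were 6 as reported, 1 with limma's own inference, 2 with the authors' values, 3 with the offset of 50, 10 with no detection filter and 19 without normalization. Over all genes in ECRS_WT against Control_WT, 330 were called higher and 123 lower as reported, 108 and 41 with limma's own inference, 128 and 42 with the authors' values, 202 and 42 with the offset of 50, 214 and 79 with probes detected on all arrays, and 1028 and 15 without normalization. For ECRS_KO against ECRS_WT, 421 and 210 were called as reported, 144 and 81 with limma's own inference, 212 and 95 with the authors' values, 284 and 121 with the offset of 50, 249 and 158 with probes detected on all arrays, and 926 and 62 without normalization. For ECRS_KO against Control_WT, 628 and 514 were called as reported, 213 and 148 with limma's own inference, 295 and 221 with the authors' values, 432 and 250 with the offset of 50, and 3467 and 22 without normalization; scaling on probes detected on all arrays made 44.2% of calls higher. The cause of these changes was not tested. Fos had signals of 246, 354 and 83.4 on the arrays labelled ECRS_KO, ECRS_WT and Control_WT, and Csrnp1 125 on the ECRS_KO-labelled array. These lay below the background SD of limma's own inference (361, 356 and 259.6) and above that of the processing as reported (16.9, 13.7 and 9.23). The folds of both genes differed between these 2 backgrounds and are uncertain to that extent.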
